A study of Mus musculus with 6 samples.

Results

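Transcripts of 9 genes at the receiving end of Hedgehog signalling were followed on 6 arrays of RNA from sorted brain cells of C57BL/6J mice. The genes are the receptor gene Ptch1, the co-receptor genes Boc, Cdon and Gas1, the transducer gene Smo, the Gli-binding gene Sufu and the transcription factor genes Gli1, Gli2 and Gli3. They were chosen by symbol, and all 9 were among the 19938 genes tested, each read by 1 probe set. Of the 6 samples, 3 were GFP+ cortical neural progenitors and 3 were their RFP+ neuronal progeny, labelled as differentiated, and the populations were parted with a dual reporter and cell sorting, with no treatment other than the reporters. Biotin-labelled total RNA of each sample was read on 1 Affymetrix whole-transcript array. By the labels the GFP+ cells are cortical, and for the RFP+ cells only the brain is named, so any difference of region was not tested. Neither the animals' age, nor the promoters behind the reporters, nor whether replicates are separate animals is given in the sources used here, so p-values measure the spread between these samples only.

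Hedgehog ligands bind Ptch1 together with the co-receptors Gas1, Cdon and Boc. Unbound Ptch1 holds Smo in check, and Smo, once released, gathers in the primary cilium and frees Gli proteins from Sufu. Gli2 acts mainly as an activator, Gli3 mainly as a repressor after proteolytic trimming, and Gli1 is an activator whose own gene, like Ptch1, is switched on by the pathway. In the developing forebrain the pathway is known for setting ventral identity and for sustaining the division of neural progenitors, while Gli3 is known for its part in forming the dorsal cortex.

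The progenitor arrays carried more of 8 of these 9 transcripts than the neuron arrays. Gas1 and Gli3 differed most, at 6.64-fold and 6.07-fold, and Gli2, Smo, Cdon, Boc, Gli1 and Sufu followed at 3.93-fold down to 1.65-fold. Ptch1 was the exception, with a 1.47-fold difference that did not pass the test (adjusted p = 0.0631 by limma), and none of the 9 was higher in the neurons. With the replicate number as a block, which pairs the arrays, Ptch1 passed too (adjusted p = 0.0307), making 9 of 9. Differences are GFP+ minus RFP+ of log2(intensity + 16), tested with limma over all genes with Benjamini-Hochberg adjustment at 0.05, and given with the standard error (SE). Folds come from the same logarithms, and the added 16 makes the folds of dim genes too small. Of all genes tested 13.8% passed as higher in GFP+ progenitors, and 16.2% as higher in RFP+ neurons. The median difference was 1.54 over the 9 genes and -0.08 over all genes. For all 9 genes the lowest progenitor array lay above the highest neuron array, which held for 19.9% of all genes (43.9% did not overlap in either direction). By limma, 0 of the 9 were lower in progenitors at an unadjusted p under 0.05 as well. The sort cannot part fewer expressing cells from less RNA per cell.

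**Figure D1:**
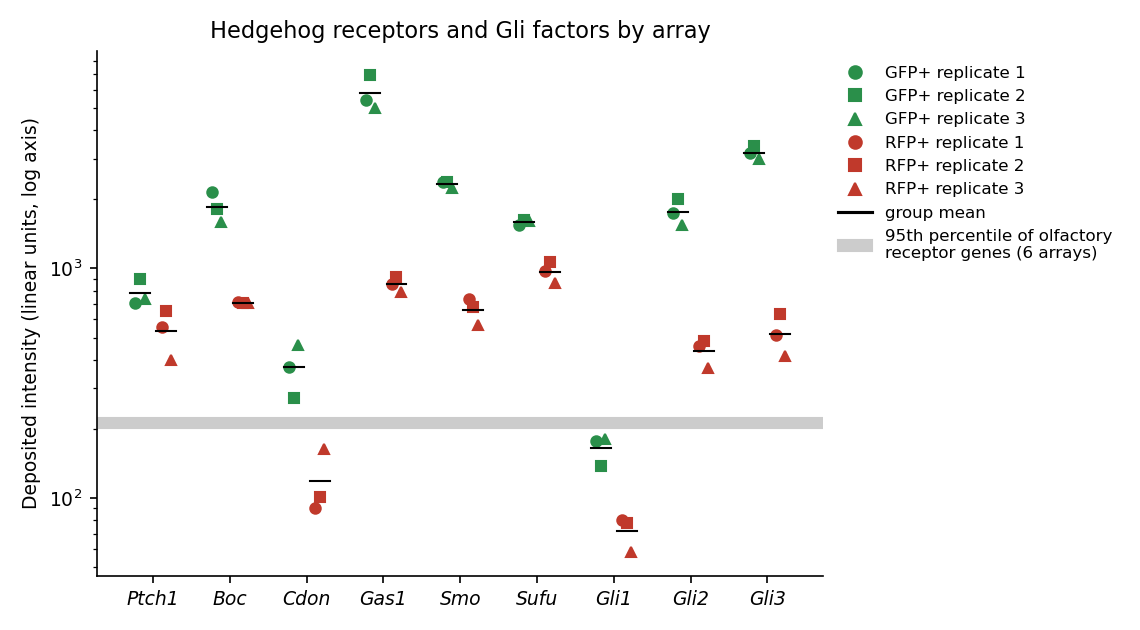
Deposited intensity (log axis) of the 9 genes on the 3 GFP+ progenitor arrays (green) and the 3 RFP+ neuron arrays (red), with group means as black lines. The grey band spans the 95th percentiles of olfactory receptor genes on the 6 arrays, 201.5 to 224.1, and Gli1 lies under it on all of them.

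**Figure D2:**
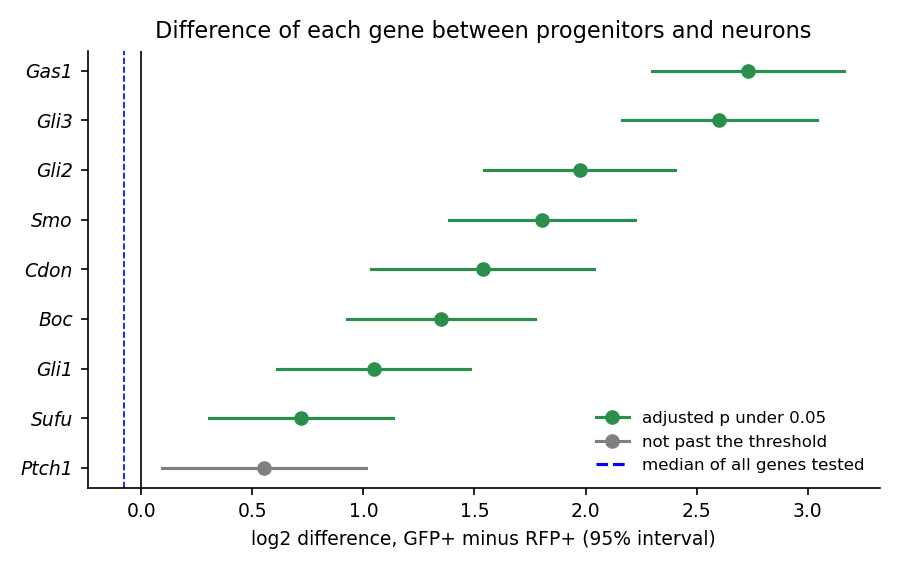
The log2 difference, GFP+ minus RFP+, of each of the 9 genes with its 95% interval, green where the adjusted p was under 0.05 and grey for Ptch1, for the fit without a replicate block. The dashed line is the median of all genes tested, -0.08.

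The sorted groups carried the markers of their labels, together with markers of vessel cells in the progenitor group. Of the radial glia markers 9 of 9 and of the intermediate progenitor markers 5 of 5 were higher in GFP+ cells, Pax6 at 5.03-fold, Sox2 at 3.67-fold and Eomes at 2.83-fold among them. Of the postmitotic neuron markers 10 of 10 were higher in RFP+ cells, Tbr1 at 4.45-fold and Dcx at 1.67-fold. Endothelial markers (10 of 10 measured), pericyte and mural markers (7 of 10), oligodendrocyte lineage markers (6 of 8), meningeal and fibroblast markers (5 of 10) and ventral forebrain markers (4 of 12) were also higher in GFP+ cells. Microglia (0 of 9 either way, 0 also at an unadjusted p under 0.05 by limma) and choroid plexus markers (0 of 7, likewise 0) did not pass, although the choroid plexus sum was 2247 on RFP+ replicate 3 and 1050 and 1143 on the other neuron arrays. Summed endothelial intensity was 2181 to 7074 on the GFP+ arrays and 688 to 993 on the RFP+ arrays. Summed mural intensity was 6731 to 8258 against 1281 to 1498. The oligodendrocyte lineage sums were 2070.2 to 3152 against 889.9 to 1143. Summed meningeal intensity was 2478 to 2852 against 1191 to 1471, and the ventral sums were 12407 to 13573 against 6455 to 13053. No marker of these lists had a mean of 0 in the GFP+ group. On all 6 arrays 0 of the 10 endothelial, 2 of the 10 mural, 1 of the 8 oligodendrocyte, 5 of the 10 meningeal and 2 of the 12 ventral markers lay under a guide to the near-background level, the 95th percentile of 1015 olfactory receptor genes on each array. Between the highest and the lowest GFP+ array the endothelial sum differed 3.24-fold, the mural sum 1.23-fold, and the sum over the 9 Hedgehog genes (17658, 19540 and 16351 on replicates 1, 2 and 3) 1.20-fold. The part of the other marker lists in these differences was not tested.

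Among Ptch1 and the 3 co-receptor genes, the co-receptors passed as higher in progenitors and Ptch1 had the smallest difference. Gas1 encodes a membrane-anchored co-receptor and was read at 5417, 6989 and 4993 on the GFP+ arrays, in replicate order, and at 853.2, 917.1 and 787.6 on the RFP+ arrays. Every progenitor value was at least 5.44 times every neuron value. The log2 difference was 2.73 ± 0.21 (SE, adjusted p = 7.00e-09 by limma), larger than that of 99.4% of all genes. Boc, which encodes an immunoglobulin-family co-receptor, was read at 2148, 1807 and 1586 in progenitors and at 711.6, 708.5 and 707.5 in neurons. The neuron values of Boc were nearly equal (SD 2.16, n = 3), and those of progenitors spread more (SD 283.4, n = 3). Its log2 difference was 1.35 ± 0.20 (adjusted p = 2.84e-05). Cdon, a relative of Boc, was read at 373.3, 274.0 and 465.9 in progenitors and at 90.64, 100.6 and 162.9 in neurons. Its neuron values lay under the olfactory guide of their own arrays (201.5 to 220.9), so the size of its difference, 1.54 ± 0.24 (adjusted p = 4.74e-05), depends on the offset of 16. The Cdon probe set is annotated with 1 predicted transcript record and no curated one. Cdon also spread most between replicates, with an SD of 95.98 around a mean of 371.1 in progenitors and of 39.16 around 118.1 in neurons.

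Ptch1 encodes the receptor that keeps the pathway off until ligand binds. It was read at 710.5, 896.7 and 737.2 in progenitors and at 557.4, 649.9 and 397.5 in neurons. The groups did not overlap, but the lowest progenitor value was 1.09 times the highest neuron value. The log2 difference was 0.55 ± 0.22 with a 95% interval of 0.10 to 1.01 (unadjusted p = 0.0204, adjusted p = 0.0631 by limma without a replicate block). With the replicate number as a block it passed (adjusted p = 0.0307 by limma). The interval of the fit without a block reaches a 2-fold difference, so a failed test does not show an equal level. Without RFP+ replicate 3 the difference was 0.36 (adjusted p = 0.291), and without RFP+ replicate 2 it was 0.70 and passed (adjusted p = 0.0428).

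Of the genes for Smo and Sufu, which act inside the receptors, both passed as higher in progenitors, Smo with the larger estimate. Their ratio was not among those compared. Smo encodes the membrane protein that passes the signal on, and was read at 2379, 2376 and 2247 in progenitors and at 737.3, 678.9 and 564.3 in neurons. The lowest progenitor array was 3.05 times the highest neuron array. The log2 difference was 1.81 ± 0.20 (adjusted p = 6.87e-07 by limma). Sufu encodes the protein that binds Gli factors and restrains them. It was read at 1544, 1633 and 1606 in progenitors and at 971.1, 1063 and 862.6 in neurons. These groups stood apart by less, with a difference of 0.72 ± 0.20 (adjusted p = 0.00900), a call that did not hold without GFP+ and RFP+ replicate 1 together (difference 0.75, adjusted p = 0.0562).

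The Gli factors ran from the largest differences of the set to one of the smaller ones. Gli3 was read at 3171, 3425 and 2991 in progenitors and at 510.6, 632.5 and 415.2 in neurons. Its progenitor values were at least 4.73 times its neuron values, and the log2 difference was 2.60 ± 0.21 (adjusted p = 1.41e-08 by limma). Gli2 was read at 1737, 2002 and 1544 in progenitors and at 459.6, 483.5 and 367.8 in neurons, a difference of 1.97 ± 0.21 (adjusted p = 3.23e-07). Gli1 was dim everywhere, at 177.2, 138.0 and 181.3 in progenitors and at 80.13, 77.48 and 58.28 in neurons. All 6 Gli1 values lay under the olfactory guide of their array, as did those of 33.3% of all genes. The difference of 1.05 ± 0.21 passed (adjusted p = 5.96e-04), with a size that depends on the offset of 16: it was 0.75 with an offset of 64 and 1.19 with an offset of 1.

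The windows around the transcription starts were drawn from RefSeq (build GRCm38.p6), from 250 bases before the start to 50 after it, and 7 of the 9 genes were matched. Those of Gas1 and Gli3 are shown for the largest differences, that of Ptch1 for the smallest, and that of Gli2 for a match to Gli-binding letters. Each is written 5′ to 3′ on the strand of its gene. Capitals mark a match to ACCACCC or CCACCCA, overlapping stretches within the consensus that Gli factors bind, searched on both strands.
Gas1 (chr13:60177486-60177785, minus strand): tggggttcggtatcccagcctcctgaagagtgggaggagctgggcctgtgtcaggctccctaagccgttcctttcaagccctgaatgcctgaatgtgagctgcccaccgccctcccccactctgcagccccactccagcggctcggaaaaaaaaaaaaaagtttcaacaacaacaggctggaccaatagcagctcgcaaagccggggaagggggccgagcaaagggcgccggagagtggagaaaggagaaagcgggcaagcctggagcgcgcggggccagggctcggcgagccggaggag
Gli3 (chr13:15463473-15463772, plus strand): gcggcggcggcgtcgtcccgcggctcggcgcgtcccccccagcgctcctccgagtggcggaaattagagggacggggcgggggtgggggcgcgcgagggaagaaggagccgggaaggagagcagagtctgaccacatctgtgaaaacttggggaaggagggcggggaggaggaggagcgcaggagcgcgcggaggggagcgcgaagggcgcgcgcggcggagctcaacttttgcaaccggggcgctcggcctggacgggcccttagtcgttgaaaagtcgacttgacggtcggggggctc
Gli2 (chr1:119053570-119053869, minus strand): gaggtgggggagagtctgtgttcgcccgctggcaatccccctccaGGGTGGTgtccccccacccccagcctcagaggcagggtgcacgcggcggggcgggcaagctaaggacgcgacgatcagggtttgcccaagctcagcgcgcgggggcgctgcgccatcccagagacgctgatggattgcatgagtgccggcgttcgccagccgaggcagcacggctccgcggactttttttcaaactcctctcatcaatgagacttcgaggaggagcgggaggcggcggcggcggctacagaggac
Ptch1 (chr13:63565686-63565985, minus strand): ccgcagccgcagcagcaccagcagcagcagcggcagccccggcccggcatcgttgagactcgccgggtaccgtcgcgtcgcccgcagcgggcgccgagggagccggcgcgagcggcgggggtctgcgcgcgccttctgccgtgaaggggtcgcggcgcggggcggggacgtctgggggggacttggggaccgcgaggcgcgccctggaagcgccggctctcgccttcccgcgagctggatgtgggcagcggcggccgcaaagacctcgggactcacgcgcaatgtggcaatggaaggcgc
Gli2 was the only one of the 7 windows to hold ACCACCC, as its reverse complement GGGTGGT at position 46 of the 300-base window, and 0 of the 7 held CCACCCA. Of all 32851 windows, 4.61% held the first and 9.30% the second. A match is a description of these letters and not a binding site, and windows without a match say nothing about sites elsewhere. The windows of Ptch1 and Gli3 were rich in G and C, at 76.3% and 71.0%, more than 97.1% and 91.8% of all windows, and their ratios of observed to chance-level CG pairs were 1.09 and 1.12 against a median of 0.384. Cdon lay at the other end of the 7, with 44.7% G and C and a ratio of 0.201, where the median window had 52.7% G and C. The window of Gas1, the gene with the largest difference, had 62.3% G and C and a ratio of 0.587.

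Ratios between genes on the same array set their changes side by side. Of 7 ratios compared, 6 did not overlap between the groups, and each of these reached the smallest p that an exact two-sided permutation test of 3 against 3 arrays can give (p = 0.10, adjusted over the 7 ratios 0.117). No ratio could therefore pass 0.05. The log2 ratio of Ptch1 to Smo was -1.57 ± 0.17 (SD, n = 3) in progenitors and -0.31 ± 0.22 (SD, n = 3) in neurons, so that Smo gained on Ptch1 in progenitors, a difference of -1.25 ± 0.16 (SE). The ratio of Gli2 to Gli3 was -0.86 ± 0.09 against -0.23 ± 0.13 (SD, n = 3 each), a difference of -0.63 ± 0.09 (SE) in the direction of Gli3. Among the co-receptors Gas1 gained on Boc by 1.38 ± 0.19 (SE). The ratios with Gli1 or Cdon hold values under the olfactory guide, where a change is read as too small, so they have no fixed size and do not show unequal change. The ratio of Gli1 to Gli3 differed by -1.56 between the groups (-1.44 with an offset of 1 and -1.74 with 64), that of Gli1 to Gli2 by -0.93 (-0.82 and -1.11), and that of Gas1 to Cdon by 1.19 (1.09 and 1.41). Boc and Cdon differed by -0.19 ± 0.37 (SE, exact p = 0.60), with overlapping groups, an estimate too wide to show that they changed alike and of the other sign with an offset of 64 (0.04). Such ratios compare changes and not the abundance of the transcripts.

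**Figure D3:**
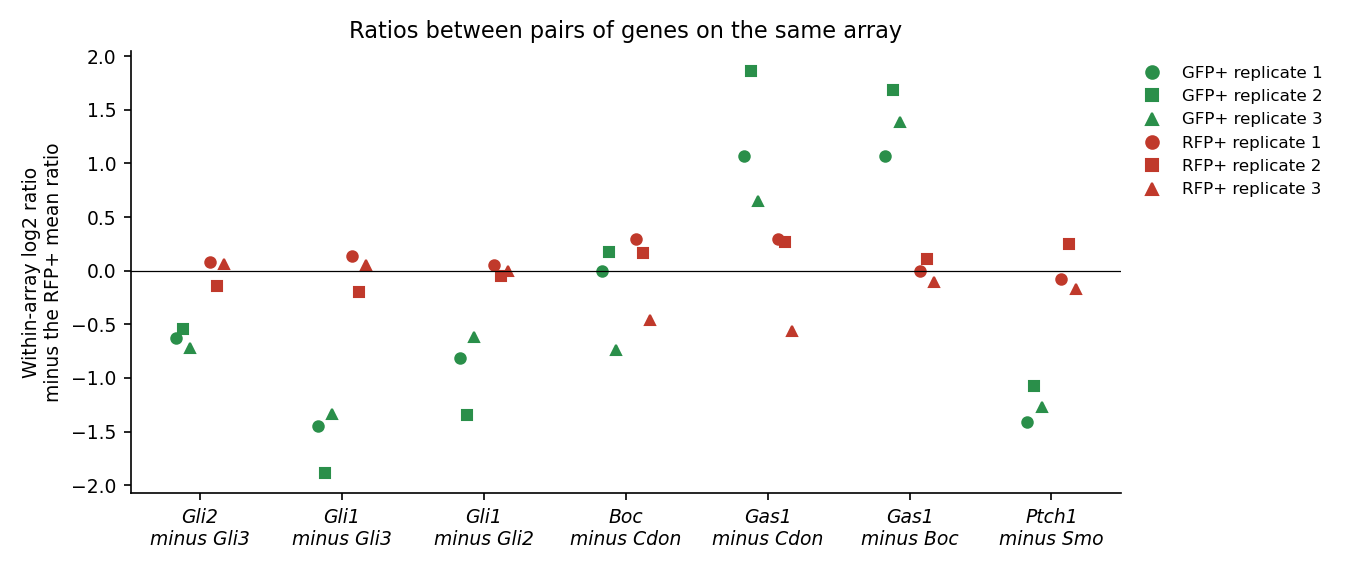
Within-array log2 ratios of 7 gene pairs, each minus its mean over the 3 RFP+ arrays, on GFP+ progenitor arrays (green) and RFP+ neuron arrays (red). Only the ratio of Boc to Cdon overlaps between the groups.

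Among the neuron arrays the 9 genes were mostly lowest on 1 of them. On RFP+ replicate 3, 8 of the 9 were at their lowest among the neuron arrays, and Cdon was at its highest. Of all genes 36.4% were lowest there. The sums over the 9 genes on RFP+ replicates 1, 2 and 3 were 4972, 5311 and 4324, highest on replicate 2. Summed radial glia markers were 10523, 9533 and 9442, and the intermediate progenitor sums were 7993, 6297 and 6048. Both were also lowest on replicate 3, the radial glia sum by little, but highest on replicate 1. The ventral forebrain sums were 13053, 9517 and 6455, in the same order. The choroid plexus sums were 1143, 1050 and 2247, highest on replicate 3, where Ttr, which encodes transthyretin, was read at 1204 against 11.51 and 41.31 on the others. The part of these markers in the low values was not tested. In the progenitors 5 of the 9 were lowest on replicate 3 and 5 highest on replicate 2, where 37.0% of all genes were lowest and 37.0% highest, so these counts were not far from the share over all genes.

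The genes with the most similar pattern over the 6 arrays were found by the mean absolute difference between log2 profiles, each centred on its own mean. These profiles keep the difference between the groups, so genes with a difference of similar size lie close. Whether the genes found share a function was not tested. For Gas1 they were Ppic and Mavs (0.083 and 0.084 log2 units), and for Gli3 they were Birc5, which encodes the mitotic protein survivin, and the collagen gene Col2a1 (0.052 and 0.065). Gli2 was closest to Crtap and to the kinetochore gene Spc24 (0.037 and 0.064), and Smo to Rhbdl3 and the transcription factor gene Dach1 (0.043 and 0.051). Gli1 was closest to Tbrg1 and Tor1aip1 (0.047 and 0.055). Boc was closest to Pcna, the replication clamp gene, and Prdx1 (0.072 and 0.080). Cdon was closest to the centrosome gene Cntrl and the mitotic inhibitor kinase gene Wee1 (0.078 and 0.089). Sufu was closest to the acetyltransferase gene Kat2a and to Pknox2 (0.026 and 0.027), and Ptch1 to Tcte2 and Zc3hav1l (0.060 and 0.065). None of these 18 genes was another of the 9. The 9 are few among the 19938 genes searched, so this count does not show whether they share a pattern. Within the set Smo and Gli2 were the closest (0.104), followed by Gli3 and Gas1 (0.122) and by Ptch1 and Sufu (0.161).

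Of the other Hedgehog genes, listed by role, 20 of 71 measured were higher in progenitors and 10 were higher in neurons. Of all genes 13.8% and 16.2% passed on these sides, so the neuron-side count was near the share over all genes. The median log2 difference of the 71 was -0.03, against 1.54 for the 9 receptors and Gli factors. The ligand genes did not pass. Shh was read at 265.1, 229.6 and 176.6 in progenitors and at 267.2, 359.2 and 248.3 in neurons, with overlapping groups and a difference of -0.36 ± 0.22 (adjusted p = 0.226 by limma). It lay over the olfactory guide on 2 of the 3 GFP+ arrays and on all 3 RFP+ arrays, so its values were near the background level. Ihh had means of 501.8 and 575.7 (adjusted p = 0.493) and lay over the olfactory guide on all 6 arrays, and Dhh lay under it on all 6. Of 9 genes for ligands and their release, 3 (33.3%) were higher in neurons and 0 higher in progenitors, 0 also at an unadjusted p under 0.05. The 3 were Disp2, a relative of the ligand exporter gene Disp1, at 3.40-fold, and the secreted-protein genes Scube3 (3.27-fold) and Scube1 (2.42-fold).

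**Figure D4:**
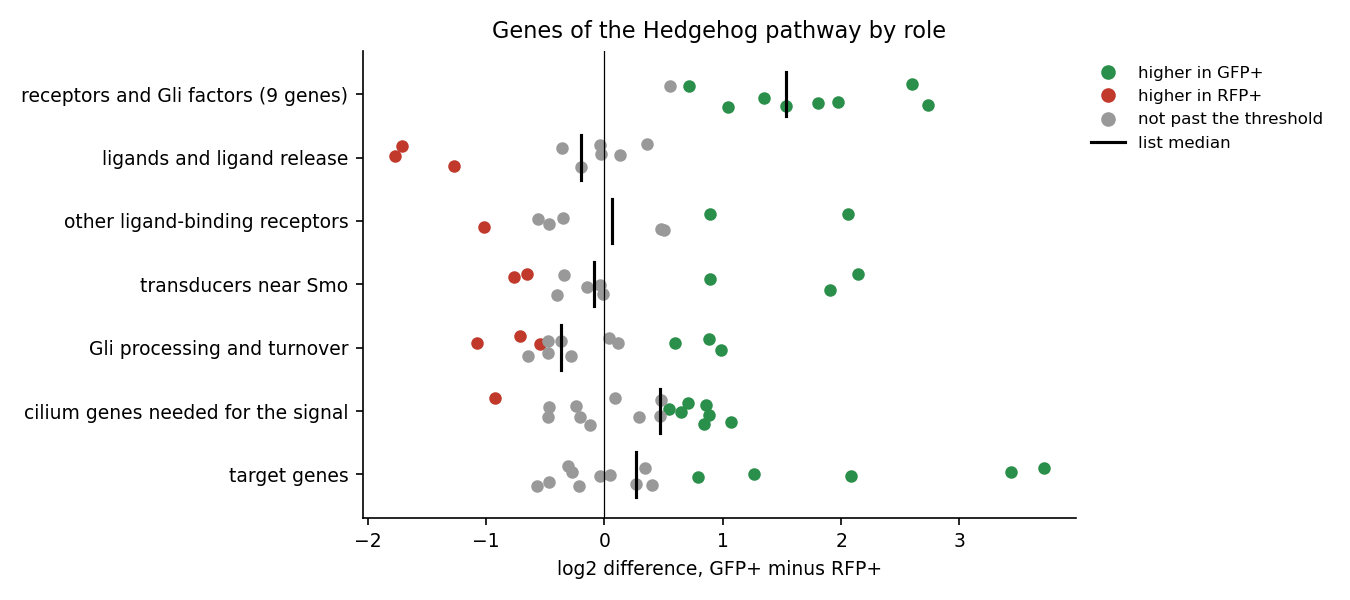
The log2 difference, GFP+ minus RFP+, of every measured gene of the Hedgehog pathway by role, green or red where it passed as higher in GFP+ or RFP+ and grey where it did not, with the list median as a black line. The 9 receptors and Gli factors have a median of 1.54, the other lists of -0.36 to 0.47.

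Other ligand-binding genes passed on both sides. Of 8 measured, 2 (25.0%) were higher in progenitors and 1 (12.5%) in neurons, against 13.8% and 16.2% of all genes. With the replicate number as a block the counts were 4 and 2. Glypicans are cell-surface proteoglycans that bind the ligand: Gpc3 was 4.15-fold and Gpc6 1.86-fold higher in progenitors, and Gpc2 was 2.02-fold higher in neurons. The neuron values of Gpc3 (mean 92.7 ± 8.90, SD, n = 3), and that of Gpc6 on RFP+ replicate 1, were under the olfactory guide, so both folds depend on the offset. Hhip, a decoy receptor gene induced by the pathway, had means of 407.7 ± 260.9 and 499.3 ± 144.2 (SD, n = 3 each, adjusted p = 0.332). Without GFP+ replicate 1 the neurons had 2 higher genes in this list.

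Of 10 measured genes that act beside Smo, 3 (30%) were higher in progenitors and 2 (20%) in neurons, against 13.8% and 16.2% of all genes. The former were Ttc23 at 4.40-fold, Evc at 3.75-fold and Evc2 at 1.86-fold, whose proteins sit at the base of the cilium, where Smo signals. Efcab7 and Iqce, whose proteins belong to the same compartment, did not pass, with log2 differences of -0.34 and -0.01 (adjusted p = 0.258 and 0.972 by limma). All 3 neuron values of Evc, and that of Ttc23 on RFP+ replicate 1, lay under the olfactory guide. The neuron-side genes were Gpr161, a ciliary receptor that holds the pathway off (1.70-fold), and the arrestin gene Arrb1 (1.57-fold). Gpr161 lost its call without RFP+ replicate 1 or 2 (adjusted p = 0.0548 and 0.0657), and Arrb1 without replicate 2 (0.0886), so that 1 or 0 genes were then left on that side.

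Of 13 measured genes for the processing and turnover of Gli proteins, 3 (23.1%) were higher on each side, with a list median of -0.36. Of all genes 13.8% passed as higher in progenitors and 16.2% as higher in neurons. Numb, an adaptor for Gli degradation (1.98-fold), Kif7, a kinesin at the tip of the cilium (1.85-fold), and Itch, a ubiquitin ligase gene (1.51-fold), were higher in progenitors. Dyrk2, a kinase that marks Gli2 for degradation, was 2.10-fold higher in neurons, and the kinase genes Gsk3b (1.64-fold) and Prkacb (1.46-fold) were the others on that side. With the replicate number as a block 6 passed on the neuron side. Itch and Prkacb lost their calls in 5 of the 6 fits that left out 1 array (adjusted p up to 0.157 and 0.164), and Gsk3b without RFP+ replicate 1 (0.0517). With all arrays kept, Itch and Prkacb also lost them with an offset of 1 (adjusted p = 0.0722 and 0.0640 by limma). So did Itch with median centring (0.0615) and Prkacb with quantile normalization (0.0663).

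Of 17 measured cilium genes on which the signal depends, 7 (41.2%) were higher in progenitors and 1 (5.88%) in neurons. The shares over all genes were 13.8% and 16.2%. With the replicate number as a block 3 were higher in neurons. The largest differences towards progenitors were those of Ift80, a transport-train subunit (2.10-fold), Tctn2, a transition zone gene (1.84-fold), and Dync2h1, the motor of retrograde transport (1.81-fold). Kif3a, a subunit of the motor that runs the other way, was 1.89-fold higher in neurons. Without GFP+ replicate 3 the counts were 4 and 2, and without RFP+ replicate 1 the progenitors had 4.

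Of 15 measured genes known as targets of the pathway in some tissue, 5 (33.3%) were higher in progenitors and 0 in neurons. The shares over all genes were 13.8% and 16.2%. On the neuron side 1 gene, Mycn, had an unadjusted p under 0.05. Its log2 difference was -0.57 ± 0.22 (SE, unadjusted p = 0.0189, adjusted p = 0.0594 by limma). Olig2, a transcription factor gene of ventral progenitors and oligodendrocytes, was read at 349.5, 481.3 and 250.6 in progenitors and at 1.01, 25.17 and 14.76 in neurons (13.1-fold, adjusted p = 7.65e-09 by limma). Ccnd1, which encodes cyclin D1, was 10.8-fold higher and Cdk6, its kinase partner, 4.24-fold higher. The neuron values of Olig2 and Ccnd1 lay under the olfactory guide, so both folds depend on the offset: that of Olig2 was 37.2-fold with an offset of 1 and 5.38-fold with 64, and that of Ccnd1 11.6-fold and 8.83-fold. The others were Ccnd2 (2.40-fold) and Fgf15 (1.73-fold), of which Fgf15 lay under the olfactory guide on all 6 arrays and lost its call without RFP+ replicate 2 (adjusted p = 0.0740). The oligodendrocyte lineage list, which holds Olig2, was higher in the same arrays with the sums given above. Without GFP+ replicate 1 or 2, and with the replicate number as a block, 1 target gene passed as higher in neurons.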

How the data were processed

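The deposited values were microarray intensities on a linear scale, 1 column per array, made by the authors with the Affymetrix Expression Console per the submitters' processing notes. Background correction, normalization and summarisation are not given in the sources used here. Array medians were 210.3 to 221.1 and the highest intensities 28533 to 34227, with 53 to 112 probe sets at 0. The number of arrays, 3 per group, limits the precision.

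Of 35557 probe sets 21789 carried 1 gene symbol, 1621 several, and 12147 were unnamed here (platform annotation). Entrez identifiers matched 21698 and changed 0 symbols. Per gene the probe set with the highest mean was kept (999 genes had more than 1), and no dim gene was left out. After an offset of 16, log2 values went into limma 3.58.1 (lmFit, eBayes, two-sided) in R 4.3.3, without a replicate block. Figures used Python 3.11.15 and matplotlib 3.10.9. The fit was tested on simulated data with 50 changed genes at each fold. It recovered 1 of 50 at 1.5-fold, 17 at 2-fold, 41 at 4-fold and 50 at 8-fold, with 2 false calls. Small differences were thus mostly missed there. Fewer genes were changed in the simulation than passed in these data, which makes the Benjamini-Hochberg cut-off stricter there. Recovery in these data can therefore be higher, by an amount that was not measured.

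The 9 genes, the gene lists and the alternatives were chosen with earlier results of these data known. Named were the 9 genes, the ligand genes, in each other list the 3 passing genes with the largest difference in the majority direction and the largest the other way, the 2 nearest patterns of each of the 9, and Pax6, Sox2, Eomes, Dcx and Tbr1. Hhip, Arrb1, Gsk3b, Prkacb, Ccnd2, Fgf15, Mycn, Efcab7, Iqce and Ttr were added after their values were seen. Of 76 other Hedgehog genes listed 71 were measured. Of 5 red blood cell markers 1 was measured (log2 difference 0.20, not past the threshold).

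Titles number the replicates. Across genes, deviations from the group mean correlated at 0.204, 0.288 and 0.361 between a GFP+ and an RFP+ array that share a number and at -0.27 to 0.0042 otherwise, so the numbers were taken to pair the arrays. Deviations within a group sum to 0, so these values are not independent. The main fit and the ratio tests given above left this pairing out. The blocked fit is an alternative and stands beside results whose call it changes.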

Additional observations from a re-analysis of the deposited data

How the results depend on the processing

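The differences of Gas1, Gli3, Gli2, Smo, Cdon, Boc and Gli1 kept their direction and passed in every alternative that held them. These were another offset, quantile normalization, median centring, an intensity trend with robust moderation and the replicate block. Others left out the dimmest 30% of genes (Gli1 among them), each array in turn, or both arrays numbered 1. Averaging the probe sets of a gene could not move these differences, as each of the 9 genes is read by 1 probe set. Ptch1 passed with the replicate block, with the trend and without the dimmest 30% of genes (0.55 in each), and with an offset of 64 (0.51), and ranged from 0.36 to 0.70 when 1 array was left out. Sufu, at 0.75, did not pass without both arrays numbered 1. The cause was not tested. The replicate block changed no other call of the 9.

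Without both arrays numbered 1, which leaves 2 arrays per group, 1848 genes in all passed as higher in neurons, against 3236, with 0 genes beside Smo and 1 Gli processing gene on that side, and 3 cilium genes were higher in progenitors. Other ligand-binding genes numbered 4 in progenitors with the replicate block, an offset of 64 or the trend, and 2 in neurons with the block or median centring. Gli processing genes higher in neurons numbered 6 with the block and 5 with an offset of 64 or the trend. Cilium genes higher in neurons numbered 3 with the block and 2 with an offset of 64. A target gene, 1 in each case, passed as higher in neurons with the block, an offset of 64, median centring, the trend or without the dimmest 30% of genes. Leaving out 1 array gave 1 to 2 other ligand-binding genes, 0 to 2 genes beside Smo, 1 to 2 cilium genes and 0 to 1 target genes higher in neurons, and 4 to 7 cilium genes higher in progenitors. Dhh, not past the threshold, changed sign without GFP+ replicate 1 or 2 (-0.0066 and -0.014) and ranged up to 0.42 when 1 array was left out, and Hhip, also not past it, ranged from -0.93 to 0.11, the latter without GFP+ replicate 3. Values near the background limit the sizes given for Gli1 and Cdon.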
